A study of Arabidopsis thaliana with 48 samples.

Results

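Ribosome-bound mRNA of the root endodermis was compared between an Arabidopsis thaliana line in which the brassinosteroid receptor BRI1 is expressed from the endodermal promoter pSCR in a bri1 mutant and the endodermis of wild-type plants, without hormone treatment. The comparison rests on 4 of the 48 libraries of the series, 2 for each line. The wild-type group, written pSCR, is Col-0 with the FLAG tag on ribosomes driven by pSCR. The restored group, written pSCR(pSCRBRI1), is bri1-116 in Col-0 with the same tag promoter and with BRI1 driven by pSCR. Both groups were 6-day-old roots grown in continuous light and taken at 0 h of brassinolide (BL), the most active brassinosteroid. Tagged ribosomes were immunopurified with their mRNA, so each library reads the mRNA on ribosomes of the cells in which pSCR is active. The roots of the restored line lack endogenous BRI1 function in all cells, and the transgene supplies the receptor where pSCR is active. The 2 groups therefore differ in the tissue around the endodermis as well as in the endodermis, and the comparison cannot tell apart a change made by BRI1 inside the endodermis from one that follows from its absence elsewhere. Whether each line is 1 transgenic insertion or several is not given in the sources used here. In such bulk samples, fewer cells that express a gene and less RNA per cell cannot be told apart. The labels describe the libraries of a group as biological repetitions.

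Brassinosteroids are plant steroid hormones that bind the receptor kinase BRI1 at the cell surface. Through its co-receptors and the kinase BIN2, the signal sets the activity of the transcription factors BZR1 and BES1, which bind short DNA motifs and switch many growth genes, among them genes for wall-loosening proteins, while they repress genes of hormone synthesis. The endodermis is the cell layer that surrounds the vascular core of the root and seals it with the Casparian strip and with suberin. The allele bri1-116 carries a premature stop codon.

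Both groups carried an endodermal profile. The summed level of 11 Casparian strip genes was 8215 and 9047 CPM (read counts scaled to the size of the library by TMM) in the pSCR libraries and 9373 and 9394 CPM in the pSCR(pSCRBRI1) libraries. None of these 11 genes passed, and CASP1, a scaffold protein of the strip, had 2806 and 3314 CPM against 3920 and 3930 CPM. Epidermis, root cap and stele markers were far below the levels of their own lines in all 4 libraries. The 8 epidermis genes summed to 11.96 and 9.15 CPM in pSCR and to 14.0 and 11.2 CPM in pSCR(pSCRBRI1), against 270.3 and 203 CPM in the epidermal pGL2 line, and 3 of them were under 1 CPM in all 4 libraries. The 5 root cap genes summed to 22.0 and 16.2 CPM against 21.2 and 22.5 CPM, where the root cap line pBRN2 had 3659 and 3153 CPM, and 2 of them were under 1 CPM in all 4 libraries. The 9 stele and phloem genes summed to 60.8 and 49.6 CPM against 52.2 and 53.7 CPM, where the stele line pSHR had 494 and 434 CPM. Other lists were set against the whole-root line 35S, which is not the line of a single tissue, so their gaps are not comparable with those above. The 7 root hair genes summed to 30.3 and 14.0 CPM against 41.6 and 29.8 CPM, where 35S had 134 and 157 CPM. The 8 meristem genes summed to 47.6 and 70.0 CPM against 41.8 and 42.2 CPM, where 35S had 138 and 146 CPM. The 22 photosynthesis genes summed to 44.8 and 33.8 CPM against 36.9 and 39.3 CPM, where 35S had 97.6 and 91.2 CPM. Of 3 cortex genes 1 passed, at 1.13 and 2.01 CPM in pSCR and 0.271 and 0.374 CPM in pSCR(pSCRBRI1). The cortex list summed to 4.07 and 4.06 CPM against 4.72 and 4.01 CPM, where 35S had 30.7 and 29.5 CPM. The part that these tissues take in the line differences below was not tested. Total counts were 21502387 and 20556381 in pSCR and 31510783 and 25997417 in pSCR(pSCRBRI1). A note on read trimming stands in the labels of both pSCR libraries and of 1 pSCR(pSCRBRI1) library.

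BRI1 did not pass in this comparison. Its level was 8.56 and 26.1 CPM in pSCR and 17.7 and 22.1 CPM in pSCR(pSCRBRI1), and the groups overlapped (log2 change 0.20 ± 0.39 SE, adjusted p = 0.858). The counts do not separate reads of the transgene from reads of the mutant transcript, so the value does not measure the functional receptor.

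Restored roots had many more endodermal transcripts above the wild-type level than below it. Of 20995 genes tested, 530 were higher in pSCR(pSCRBRI1), which is 2.52% of the genes, and 97 were lower, which is 0.462%, and together they made 2.99%, at an adjusted p under 0.05 in edgeR's quasi-likelihood test with Benjamini-Hochberg adjustment. The median log2 change was 1.60 among the higher genes and -1.05 among the lower ones, beside a median of -0.0061 over all genes. A change of more than 4-fold was found in 183 of the higher genes and in 10 of the lower ones. All 627 genes had libraries that did not overlap between the lines, which was also true of 39.4% of all genes tested. Of the 530 higher genes, 216 had a mean under 8 CPM in the restored line. The counts depended on single libraries. Without pSCR replicate 1 they were 231 higher and 48 lower, without pSCR replicate 2 they were 206 and 58, and without pSCR(pSCRBRI1) replicate 1 they were 196 and 14. Without pSCR(pSCRBRI1) replicate 2, which leaves only libraries with the trimming note, they were 456 and 123.

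The gene lists with the most higher members were those of cell wall loosening. Of the 31 expansin genes, whose proteins loosen the wall without cutting its polymers, 21 passed the filter on low counts, 7 were higher and none was lower. Of the 33 genes of xyloglucan endotransglucosylase/hydrolases (XTH), enzymes that cut and rejoin the xyloglucan chains between cellulose fibres, 30 passed the filter, 8 were higher and none was lower. The median log2 change was 0.64 over the 21 expansins and 1.06 over the 30 XTH genes. After BL, 5 expansins and 4 XTH genes were higher at 3 h, and 5 and 6 at 8 h. In the epidermal BRI1 line described below, 4 expansins and 8 XTH genes were higher and 1 XTH gene was lower. The higher XTH members were thus no fewer there than in the endodermal line. None of 10 genes of primary wall cellulose synthesis passed, and their median log2 change was 0.02.

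For the expansin and XTH lists, the pair with the largest log2 change among genes that averaged 8 CPM or more in the restored line is shown here by its promoters, the 250 bases before the gene start, from the RefSeq genome of build TAIR10.1, each read 5′ to 3′ on the strand of its gene. EXPA8 lies on the minus strand (chr2:16950706-16950955), EXPA1 on the plus strand (chr1:26141476-26141725), XTH5 on the minus strand (chr5:4477091-4477340) and TCH4 on the minus strand (chr5:23308681-23308930). Capitals mark matches, on either strand, to the motifs CGTGTG and CGTGCG, which BZR1 is known to bind, and CANNTG, which includes the CACGTG form and which BES1 and its partners are known to bind. A CACGTG match also counts as a CANNTG match.
EXPA8: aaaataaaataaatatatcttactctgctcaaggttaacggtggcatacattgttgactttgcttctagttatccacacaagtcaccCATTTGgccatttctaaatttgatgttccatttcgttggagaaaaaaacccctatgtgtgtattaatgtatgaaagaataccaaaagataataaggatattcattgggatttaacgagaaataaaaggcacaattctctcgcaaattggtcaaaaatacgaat
EXPA1: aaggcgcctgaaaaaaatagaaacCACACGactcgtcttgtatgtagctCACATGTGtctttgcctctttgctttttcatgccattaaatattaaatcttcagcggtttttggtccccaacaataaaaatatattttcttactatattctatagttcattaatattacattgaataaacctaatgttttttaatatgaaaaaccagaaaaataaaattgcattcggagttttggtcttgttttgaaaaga
XTH5: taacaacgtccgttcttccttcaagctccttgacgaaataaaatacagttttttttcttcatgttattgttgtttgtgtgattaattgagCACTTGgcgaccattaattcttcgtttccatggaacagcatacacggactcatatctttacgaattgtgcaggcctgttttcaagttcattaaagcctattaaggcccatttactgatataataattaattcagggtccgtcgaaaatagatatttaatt
TCH4: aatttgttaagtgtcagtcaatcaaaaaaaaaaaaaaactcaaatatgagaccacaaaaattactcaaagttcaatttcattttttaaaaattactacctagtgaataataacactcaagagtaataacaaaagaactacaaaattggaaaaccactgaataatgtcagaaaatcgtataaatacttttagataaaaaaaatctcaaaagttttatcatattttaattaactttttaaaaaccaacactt
EXPA1 held 1 match to CGTGTG and 2 to CANNTG, EXPA8 and XTH5 held 1 match each to CANNTG, and TCH4 held none of these letters in this window. Over all genes, CGTGTG or CGTGCG stood in 7.18% of 529 promoters of higher genes and in 6.97% of 20862 promoters of genes tested. The corresponding shares were 57.5% and 56.1% for CANNTG and 6.05% and 7.22% for CACGTG. Among the 97 lower genes, 10.3% held CGTGTG or CGTGCG and 54.6% held CANNTG. The shares among the higher genes were thus close to those among all genes.

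EXPA8 (AT2G40610) was almost silent in wild-type endodermis. It had 0.924 and 0.607 CPM in pSCR and 24.9 and 26.6 CPM in pSCR(pSCRBRI1), a log2 change of 5.06 ± 0.51 (SE, n = 2 libraries a line, adjusted p = 1.66e-07). EXPA1 (AT1G69530) had 4.03 and 6.30 CPM in pSCR and 141 and 97.2 CPM in pSCR(pSCRBRI1), a log2 change of 4.53 ± 0.64 (adjusted p = 6.22e-05). In both genes the restored libraries stood far above the wild-type ones, with little spread within a line relative to the gap. EXLA3 (AT3G45960), an expansin-like gene outside the expansin list, had 2.06 and 1.73 CPM against 23.6 and 48.3 CPM (log2 change 4.24 ± 0.62, adjusted p = 6.74e-05). The replicates of the restored line differed more than those of the wild type, and the groups did not overlap. EXPA9 and EXPA11 were already well expressed in the wild type, with 23.6 and 43.7 CPM and with 36.6 and 62.8 CPM. They reached 115 and 85.6 CPM and 156 and 135 CPM, log2 changes of 1.58 ± 0.37 and 1.55 ± 0.32. Both lost the call without pSCR replicate 1 and without pSCR(pSCRBRI1) replicate 1. EXPA10 (log2 change 2.33 ± 0.58) and EXPA18 (1.44 ± 0.38, a gene known from root hairs) passed in 1 of the 4 fits that leave out a library. EXPA12 was at 0 and 0.0467 CPM in pSCR and at 0.441 and 0.786 CPM in pSCR(pSCRBRI1), at least 4.61-fold higher against a floor of 3 counts a library, and it lost the call whenever a library was left out.

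Among the XTH genes, TCH4 (AT5G57560), which is known for its response to touch and to brassinosteroids, had 3.57 and 2.43 CPM in pSCR and 19.5 and 39.0 CPM in pSCR(pSCRBRI1). Its log2 change was 3.28 ± 0.44 (adjusted p = 2.37e-05). XTH33 (AT1G10550) had 1.34 and 1.07 CPM against 10.8 and 10.1 CPM, with little spread within each line, and a log2 change of 3.11 ± 0.30 (adjusted p = 6.17e-08). XTH5 (AT5G13870) had 3.65 and 4.44 CPM against 54.3 and 24.4 CPM, a log2 change of 3.28 ± 0.63 (adjusted p = 0.00221). The restored replicates of XTH5 lay farther apart than the wild-type ones, and its call was lost without pSCR replicate 1 (adjusted p at most 0.0627 over the 4 fits) and without pSCR(pSCRBRI1) replicate 1. XTH18 (AT4G30280) had 12.4 and 6.54 CPM against 55.6 and 71.5 CPM, a log2 change of 2.74 ± 0.41 (adjusted p = 7.63e-05), and its neighbour XTH24 (AT4G30270) had 29.5 and 50.4 CPM against 122 and 206 CPM (2.04 ± 0.51, adjusted p = 0.0238). XTR6, XTH17 and XTH4 had smaller log2 changes of 1.98 ± 0.31, 1.49 ± 0.35 and 1.00 ± 0.26. XTH4 was the most abundant of them in the wild type, with 64.7 and 92.7 CPM against 175 and 139 CPM. XTR6 kept its call in all 4 fits without a library, XTH17 in 2, and XTH24 and XTH4 in 1. XTH17 and XTH18 are close paralogs, and how reads shared between them were counted is not given in the sources used here.

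**Figure D1:**
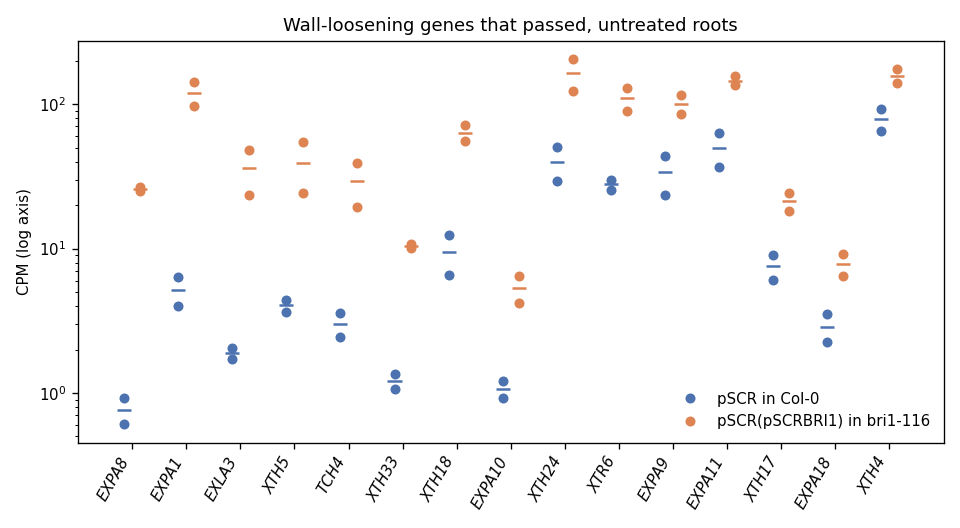
Level in CPM (log axis) of 15 wall genes that passed in untreated roots, for the 2 pSCR libraries in Col-0 and the 2 pSCR(pSCRBRI1) libraries in bri1-116. Points are libraries and bars are means of 2, EXPA12 is left out because 1 library is at 0, and in every gene shown both restored libraries lie above both wild-type ones, from EXPA8 (log2 change 5.06) to XTH4 (1.00).

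The other higher genes with the largest changes included enzymes of the wall, of ethylene synthesis and of stress, and transcription factors. ATPMEPCRB (AT4G02330), a pectin methylesterase, had 0.462 and 0.467 CPM in pSCR and 14.7 and 26.2 CPM in pSCR(pSCRBRI1), the largest change of the genes ranked for naming (log2 change 5.45 ± 0.72, adjusted p = 2.21e-05). NAC048 (AT3G04420), a NAC transcription factor, had 1.97 and 0.607 CPM against 42.6 and 29.0 CPM (4.77 ± 0.52, adjusted p = 5.31e-07). TCH3 (AT2G41100), a calmodulin-like protein induced by touch, had 0.882 and 1.26 CPM against 13.9 and 28.3 CPM (4.30 ± 0.78, adjusted p = 0.00123). In these 3 genes both wild-type libraries were under 2 CPM and both restored libraries were several times higher. TCH3 lost its call without pSCR replicate 1. ACO1 (AT2G19590), an ACC oxidase that makes ethylene in the last step of its synthesis, had 3.95 and 1.59 CPM against 47.3 and 28.7 CPM (3.77 ± 0.31, adjusted p = 5.14e-09). It was the only one of 8 ethylene genes that passed. DREB26 (AT1G21910), a transcription factor of the AP2/ERF family, had 1.13 and 1.45 CPM against 11.7 and 18.9 CPM (3.57 ± 0.38, adjusted p = 2.88e-07). SOT7 (AT1G28170), a sulfotransferase, had 3.82 and 2.43 CPM against 23.8 and 24.5 CPM (2.95 ± 0.42, adjusted p = 5.05e-05). The replicates of SOT7 in the restored line were nearly equal. HB1 (AT2G16060), a nonsymbiotic hemoglobin, had 2.94 and 2.61 CPM against 25.8 and 15.1 CPM (2.88 ± 0.44, adjusted p = 1.10e-04). PA2 (AT5G06720), a peroxidase, had 1.85 and 0.187 CPM against 4.92 and 11.8 CPM (3.01 ± 0.80, adjusted p = 0.0336), and it lost the call without pSCR replicate 2 and without pSCR(pSCRBRI1) replicate 2. Its log2 change ran from 2.13 to 5.45 as 1 library was left out, the highest without pSCR replicate 1.

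A very large difference was found in a gene without a symbol, named after its values were seen. AT1G28160, annotated as an integrase-type DNA-binding protein, had 0 and 0.0467 CPM in pSCR and 17.7 and 14.2 CPM in pSCR(pSCRBRI1) at 0 h, at least 119.9-fold higher against a floor of 3 counts a library. Over 0, 3 and 8 h it was at most 0.140 CPM in the 6 pSCR libraries and between 12.4 and 17.7 CPM in the 6 pSCR(pSCRBRI1) libraries. It was between 2.62 and 5.94 CPM in the 6 pGL2(pGL2BRI1) libraries and at most 0.183 CPM in the 6 labelled pGL2(pSCRBRI1). In the 30 Col-0 libraries of all tag promoters it was at most 1.65 CPM, with a median of 0.132 CPM. Its neighbour on chromosome 1 is SOT7, with 1207 bases between the genes in the deposited TAIR10 positions. SOT7 was between 23.8 and 28.0 CPM in the 6 pSCR(pSCRBRI1) libraries and between 1.56 and 3.82 CPM in the 6 pSCR libraries, but only between 1.55 and 4.85 CPM in pGL2(pGL2BRI1). Of 13 other tested genes that start within 40000 bases of AT1G28160, none passed at 0 h, and their log2 changes ran from -1.03 to 0.54.

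**Figure D2:**
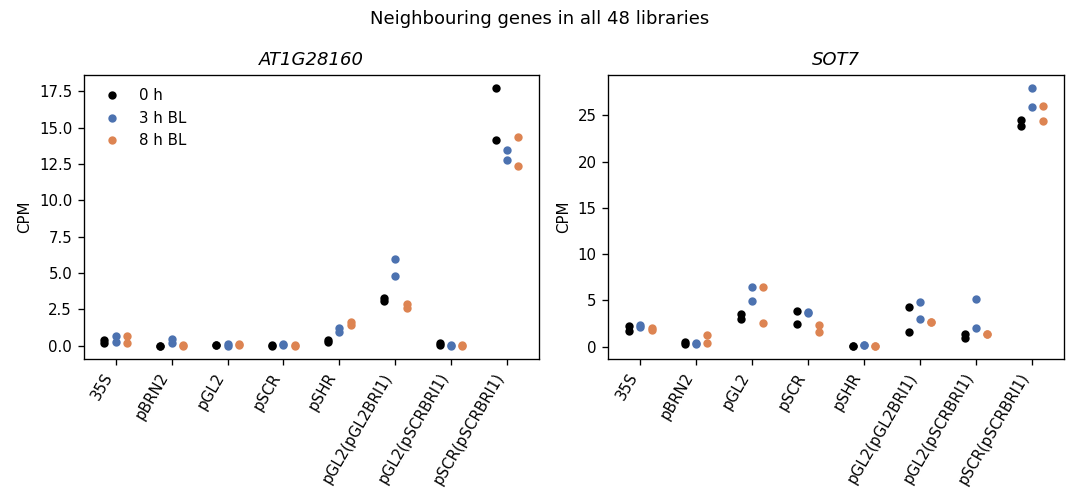
Level in CPM (linear axis) of AT1G28160 and SOT7 in all 48 libraries, by line and time, with each point a library. Both genes are high in the 6 pSCR(pSCRBRI1) libraries, and AT1G28160 is also above 2.6 CPM in the 6 pGL2(pGL2BRI1) libraries.

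In the fit of all 48 libraries no core gene of the hormone pathway itself passed. None of 10 genes of brassinosteroid synthesis, 4 of its inactivation and 24 of its signalling passed, with median log2 changes of -0.21, 0.11 and -0.26. DWF4, a hydroxylase of brassinosteroid synthesis that the hormone is known to repress, had 16.8 and 21.0 CPM in pSCR and 40.4 and 11.8 CPM in pSCR(pSCRBRI1), so the restored replicates lay on both sides of the wild type. CPD, another repressed enzyme of synthesis, had 4.28 and 5.37 CPM against 3.83 and 3.59 CPM (log2 change -0.38 ± 0.28, adjusted p = 0.558). BR6OX2, the enzyme of the last step to brassinolide, had 54.9 and 50.2 CPM against 18.18 and 19.66 CPM, groups that did not overlap but whose difference did not pass in the fit of all 48 libraries (-1.47 ± 0.54, adjusted p = 0.155). It passed in the fit of the 4 compared libraries alone (adjusted p = 0.0350) and of the 12 libraries of the lines (adjusted p = 0.0110), and over all alternatives its adjusted p ran from 7.18e-10 to 0.649. BZR1 had 17.6 and 16.0 CPM against 15.2 and 17.9 CPM, and BES1 had 13.6 and 19.9 CPM against 21.6 and 16.2 CPM. Of 16 genes tested from a list of brassinosteroid response genes, 3 were higher and none was lower, and the median log2 change was 0.50. They were TCH4, XTH33 and BEE1, a transcription factor gene of the early response, which had 2.60 and 2.10 CPM against 5.19 and 6.33 CPM (1.29 ± 0.33, adjusted p = 0.0267). BEE1 lost the call whenever a library was left out. Part of this list was chosen on responses in this series and is no independent evidence of direction.

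Genes of other hormones passed in small numbers. Of 7 genes of auxin synthesis, 2 were higher, and both are flavin monooxygenases that make auxin. YUC8 (AT4G28720) had 1.93 and 3.175 CPM in pSCR and 16.6 and 14.0 CPM in pSCR(pSCRBRI1), a log2 change of 2.59 ± 0.37 (adjusted p = 5.64e-05) that passed in all 4 fits without a library. YUC9 had 0.252 and 0.280 CPM against 0.916 and 1.12 CPM (1.92 ± 0.52, adjusted p = 0.0356), at very low levels, and lost the call whenever a library was left out. Of 20 auxin response genes, AXR3, a repressor of auxin signalling, was higher with 86.4 and 99.7 CPM against 213 and 177 CPM (1.07 ± 0.24, adjusted p = 0.00976), and the list's median was 0.09. Of 9 type-A response regulators, which damp cytokinin signalling, RR5 was higher (1.01 ± 0.27, adjusted p = 0.0299). The other, ARR15, was at 0.126 and 0 CPM against 2.24 and 0.786 CPM, at least 11.4-fold higher against the floor of 3 counts a library. AXR3 and RR5 each kept the call in 1 of the 4 fits without a library, and ARR15 in 2. Of 9 genes of abscisic acid and dehydration, LTI78 (2.12 ± 0.57) and KIN1 (2.85 ± 0.56), both known from cold and drought, were higher, at means under 8 CPM. LTI78 kept the call only without pSCR(pSCRBRI1) replicate 1, and KIN1 lost it without pSCR replicate 1 and without pSCR replicate 2. Of 8 touch and wounding genes, TCH3 and TCH4 were higher and the median was 0.88. Among 20 aquaporins, the vacuolar channel TIP4;1 was higher (0.90 ± 0.20) and the plasma membrane channel PIP1;4 was lower (-0.88 ± 0.20), each in 1 of the 4 fits without a library. Of 38 lists, 24 had no member that passed. These included gibberellin, the clock, heat shock, mitosis, DNA replication, iron, nitrogen, sulfur, phosphate, phenylpropanoids, sugar starvation, photosynthesis and xylem.

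**Figure D3:**
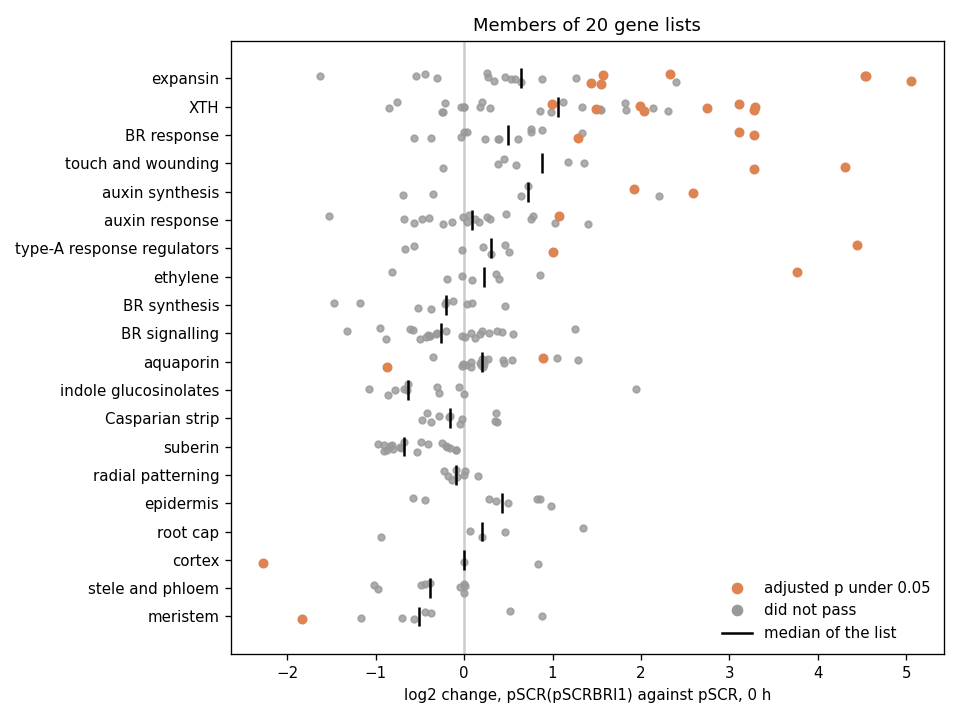
Log2 change in pSCR(pSCRBRI1) against pSCR at 0 h for the tested members of 20 gene lists. Each point is a gene, coloured where its adjusted p was under 0.05, and bars are list medians. The expansin (7 of 21) and XTH (8 of 30) lists each hold more coloured points than any other list shown, the Casparian strip and suberin lists hold none, and the points of EXPA12 and ARR15 are fitted values of genes with wild-type levels near 0.

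The lower genes were fewer and their changes smaller. PLT2 (AT1G51190), a transcription factor of the root stem cell niche, had 7.81 and 13.1 CPM in pSCR and 2.27 and 3.59 CPM in pSCR(pSCRBRI1), a log2 change of -1.83 ± 0.31 (adjusted p = 4.13e-04), and was the only one of 8 meristem genes that passed. The summed level of those meristem genes, given above, includes PLT2 and is no separate evidence. PIN4 (AT2G01420), an auxin efflux carrier, had 20.07 and 28.67 CPM against 11.3 and 12.2 CPM (-1.05 ± 0.21, adjusted p = 0.00343). It was the only one of 8 auxin transport genes that passed, and it lost the call without pSCR replicate 2 and without pSCR(pSCRBRI1) replicate 1. GATL6 (AT4G02130), a glycosyltransferase-like gene of the wall, had 10.71 and 12.98 CPM against 3.80 and 3.97 CPM (-1.61 ± 0.28, adjusted p = 5.24e-04). ACT11 (AT3G12110), an actin, had 51.9 and 50.0 CPM against 22.2 and 18.3 CPM (-1.33 ± 0.23, adjusted p = 6.70e-04). In both genes all wild-type libraries were above all restored ones, and both kept the call in all 4 fits without a library. FLR1, a leucine-rich repeat protein (-1.45 ± 0.26), ALF5, a membrane efflux carrier (-1.31 ± 0.22), and AKR4C8, an aldo-keto reductase (-1.25 ± 0.20), also kept it. The remaining genes ranked for naming did not keep the call in every such fit. They were TPPI, a phosphatase of trehalose synthesis (-1.67 ± 0.47), CAM8, a calmodulin (-1.50 ± 0.38), SOT17, a sulfotransferase of glucosinolate synthesis (-1.40 ± 0.35), and NSH3, a nucleoside hydrolase (-1.32 ± 0.27). The others were AAH, which breaks down allantoate (-1.22 ± 0.30), CYP705A33 (-1.09 ± 0.29), the copper transporter RAN1 (-1.05 ± 0.29) and the vacuolar sorting receptor VSR7 (-1.04 ± 0.30). TPPI, SOT17 and AAH lost it whichever library was left out. Without pSCR replicate 1 the log2 change of CYP705A33 was -0.54, and without pSCR(pSCRBRI1) replicate 1 that of RAN1 was -0.67. In the fit of the 4 compared libraries alone, GATL6 and SOT17 were the only ones of these 15 genes that passed.

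The barrier genes of the endodermis did not pass in either direction. All 19 suberin genes had a negative log2 change, with a median of -0.68, and none passed. Their summed level was 5532 and 3205 CPM in pSCR and 2168 and 3571 CPM in pSCR(pSCRBRI1), so the groups overlapped. The Casparian strip list had a median of -0.16 and the list of radial patterning genes a median of -0.09. SCR, the endodermal transcription factor whose promoter drives both the tag and the transgene, had 199 and 250 CPM against 170 and 227 CPM, and MYB36, which switches on the Casparian strip genes, had 101 and 119 CPM against 102 and 114 CPM. For both, the libraries of the lines overlapped.

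The line difference was measured again in libraries taken after BL, which do not enter the 0 h means. They are part of the fit of all 48 libraries, so the filter and the spread behind the 0 h calls draw on them. At 3 h of 100 nM BL, 370 genes were higher (1.76%) and 52 were lower (0.248%), and at 8 h 367 were higher (1.75%) and 57 were lower (0.271%), or 2.01% and 2.02% of all genes at the 2 times. Of the 530 genes higher at 0 h, 528 had the same sign at 3 h and 244 passed, and 523 had the same sign at 8 h and 232 passed. Of the 97 lower genes, 93 had the same sign at 3 h and 22 passed, and 92 had the same sign at 8 h and 24 passed. None passed in the opposite direction at either time. The share of all genes tested that kept its sign was not taken, so the same-sign counts have no background beside them. The libraries taken after BL come from the same 2 lines, so they repeat the measurement and not the making of the lines. EXPA8 had 0.630 and 0.944 CPM in pSCR and 37.0 and 39.5 CPM in pSCR(pSCRBRI1) at 3 h, and 0.658 and 0.841 CPM against 25.0 and 23.4 CPM at 8 h. EXPA1 had 1.72 and 3.39 CPM against 142 and 84.8 CPM at 3 h, and 2.89 and 4.50 CPM against 105 and 73.2 CPM at 8 h. Neither expansin reached in BL-treated wild-type endodermis the level of the untreated restored line. The test of the change in line difference between times, by the same edgeR fit, called 0 genes (0%) for 3 h against 0 h and 0 genes (0%) for 8 h against 0 h, with 360 and 520 genes at an unadjusted p under 0.05. PLT2 was lower by 1.83 on the log2 scale at 0 h and differed by -0.14 at 3 h and -0.33 at 8 h, and PIN4 by -1.05, -0.13 and 0.33, but neither shift passed. In PLT2 both untreated wild-type libraries, given above, stood higher than the wild-type libraries at 3 h. PLT2 had 2.84 and 2.74 CPM in pSCR at 3 h, close to 2.20 and 2.87 CPM in pSCR(pSCRBRI1). In the mean of the line differences at 0, 3 and 8 h, which includes the libraries of the 0 h comparison, 1951 genes were higher (9.29%) and 1287 lower (6.13%).

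**Figure D4:**
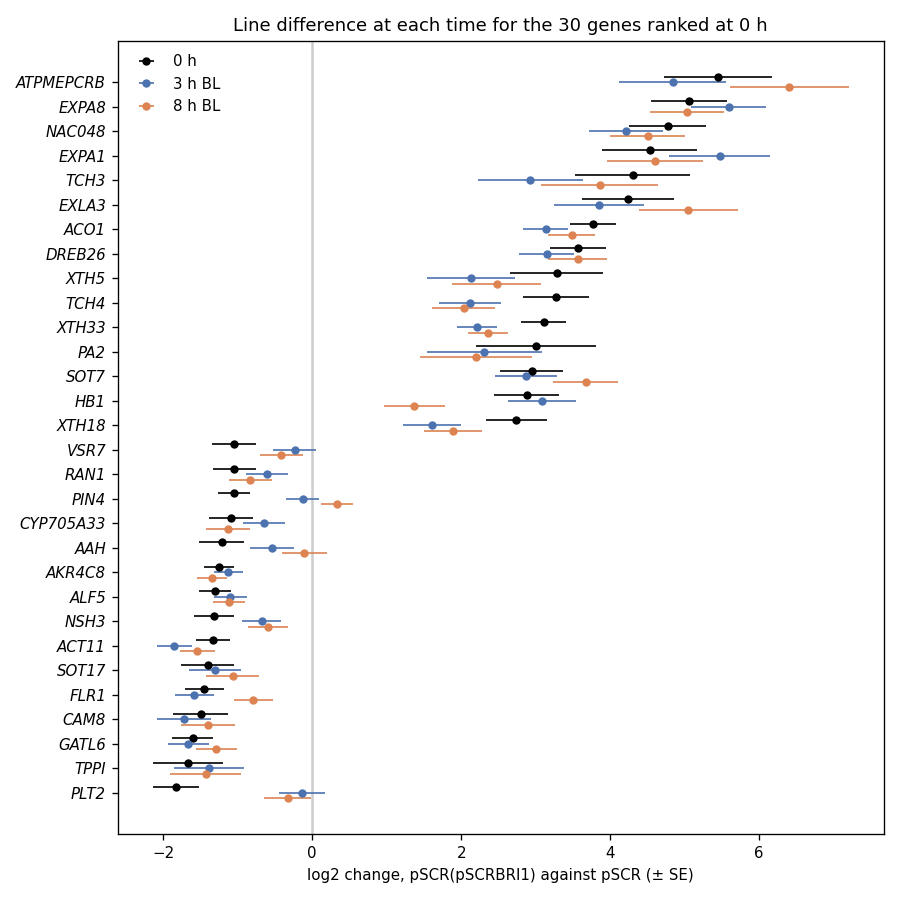
Log2 change between pSCR(pSCRBRI1) and pSCR (± SE) at 0 h and after 3 or 8 h of BL for the 15 higher and 15 lower genes ranked at 0 h. Points are fitted changes from 2 libraries a group. The higher genes stay to the right of 0 at all times, while PLT2 and PIN4 lie near 0 after BL.

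To see which changes were larger than in another restored line, the same difference was taken in the epidermis, between pGL2(pGL2BRI1), in which the non-hair epidermal promoter pGL2 drives both the tag and BRI1 in bri1-116, and pGL2 in Col-0. These 4 libraries do not enter the means of the endodermal comparison, but they are part of the same fit. In the epidermal line 1394 genes were higher (6.64%) and 996 lower (4.74%). Of the 530 genes higher in the endodermal line, 444 had the same sign in the epidermal line, 156 passed there and 5 passed in the opposite direction. Of the 97 lower genes, 72 had the same sign, 18 passed and 5 passed in the opposite direction. The same-sign share over all genes tested was not taken here either. An epidermal library held endodermal markers: the Casparian strip genes summed to 180 CPM in pGL2(pGL2BRI1) replicate 1 and to 2574 CPM in replicate 2. A direct test of the difference between the lines called 138 of all genes above the epidermal line (0.657%) and 189 below it (0.900%). Of the 530 higher genes, 74 were raised more in the endodermal line and none less, and of the 97 lower genes, 14 were lowered more. The genes were chosen by their endodermal change in libraries that also enter this difference, so the choice favours these directions and they are no independent evidence. Without pGL2(pGL2BRI1) replicate 2 these counts were 29 and 7, and the epidermal line itself had 595 genes higher and 256 lower.

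ACO1, DREB26 and SOT7 were among the genes raised in the endodermal line beyond the epidermal one. ACO1 had 2.82 and 3.16 CPM in pGL2 and 3.80 and 3.79 CPM in pGL2(pGL2BRI1), and its endodermal minus epidermal difference was 3.42 ± 0.43 on the log2 scale (adjusted p = 2.33e-05). DREB26 had 8.36 and 7.09 CPM against 9.92 and 6.14 CPM in the epidermis, with a difference of 3.51 (adjusted p = 1.10e-04), and SOT7 had 2.96 and 3.57 CPM against 1.55 and 4.24 CPM, with a difference of 3.11 (adjusted p = 0.00461). In these 3 genes the epidermal lines overlapped or lay close together. EXPA8 was already at 43.5 and 33.4 CPM in the wild-type epidermis and had 100.1 and 57.9 CPM in the restored epidermis, a difference of 4.02 between the lines (adjusted p = 5.14e-04). These 4 differences also passed without pGL2(pGL2BRI1) replicate 2. For EXPA1, with 30.9 and 32.9 CPM against 391 and 164 CPM in the epidermis, the difference between the lines was 1.41 and did not pass (adjusted p = 0.460). XTH33 had 28.6 and 23.5 CPM against 191 and 127 CPM there, and TCH4 had 3.301 and 2.705 CPM against 13.5 and 8.16 CPM. Their differences between the lines were 0.50 and 1.44 and did not pass. YUC8 had 1.65 and 2.62 CPM against 25.8 and 13.6 CPM in the epidermis, a log2 change of 3.21 that was near that of the endodermis. EXLA3 was low in all 4 epidermal libraries, between 0.241 and 1.07 CPM. Its epidermal log2 change was 2.00 and did not pass (adjusted p = 0.111). The difference of 2.24 between the lines did not pass either (adjusted p = 0.354).

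**Figure D5:**
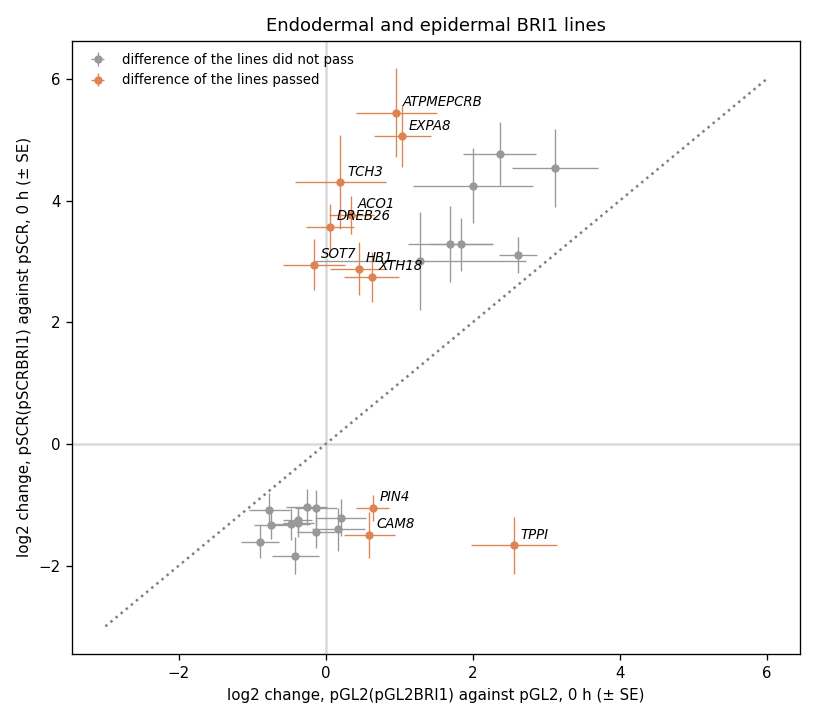
Log2 change at 0 h (± SE) of the 30 ranked genes in the endodermal pair of lines (vertical) against the epidermal pair (horizontal), from 2 libraries a group. The dotted line marks equal change, coloured points are genes whose difference between the pairs passed, and ACO1, DREB26 and SOT7 lie near 0 in the epidermal pair but above 2.9 in the endodermal pair.

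Some of the higher genes, such as ACO1, XTH5 and XTH18, were expressed more strongly in other tissues of the wild-type root than in its endodermis. The shares that follow compare pBRN2, pGL2 and pSHR with each other and leave pSCR out. Among the Col-0 lines pBRN2, pGL2 and pSHR at 0 h, the root cap line pBRN2 had the highest mean for 45.5% of the 530 higher genes and for 27.9% of all genes tested. The epidermal line pGL2 was highest for 28.5% of the higher genes and for 31.6% of all genes, and the stele line pSHR for 26.0% and 40.5%. Among the 97 lower genes the shares were 22.7% for pBRN2, 46.4% for pGL2 and 30.9% for pSHR. ACO1 had 154 and 178 CPM in pBRN2, above the 47.3 and 28.7 CPM of the restored endodermis. XTH5 had 192 and 296 CPM in pBRN2 and 107 and 103 CPM in pGL2, and XTH18 had 211 and 314 CPM in pBRN2 and 1112 and 1198 CPM in pGL2. The root cap marker list itself summed to at most 22.5 CPM in the 4 endodermal libraries. NAC048 and EXLA3 were low in the other Col-0 lines at 0 h, whole root included, with 0.723 to 1.77 CPM and 0.241 to 2.31 CPM.

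A further pair of libraries bears on the line. The libraries labelled pGL2(pSCRBRI1), by their label an epidermal tag with endodermal BRI1, held the endodermal markers instead, with Casparian strip sums of 7662 and 6224 CPM and epidermis sums of 10.9 and 12.1 CPM, so they go against their label. EXPA8 was at 0.486 and 0.987 CPM, EXPA1 at 2.98 and 6.84 CPM and ACO1 at 3.28 and 2.89 CPM in them, close to the pSCR libraries and far below pSCR(pSCRBRI1). TCH4 was at 16.3 and 7.09 CPM there, between them. Over the 530 higher genes, the median log2 change of these libraries against pSCR was 0.386. That of pSCR(pSCRBRI1) against these libraries was 1.24. Over all genes tested the same medians were -0.0105 and -0.000766. The 530 genes were chosen on the pSCR and pSCR(pSCRBRI1) libraries, so these values are a description only.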

How the data were processed

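Polysome-associated mRNA of root cells was sequenced in 48 libraries, of which 4 form the main comparison. Per the submitters' processing notes, FastQC 0.10.1 was the read check, TopHat2 2.0.9 the aligner (build TAIR10) and HTSeq 0.5.3p3 the counter. The series design states 50 bp single-end reads. The kit, TruSeq RNA v2 per the labels' protocols, does not mark strand, so overlapping genes on opposite strands cannot be told apart. The authors deposited raw read counts (whole numbers) for 33715 gene entries with TAIR10 positions, with 0 columns of other samples. Symbols came from a RefSeq gene table (TAIR10.1) matched on locus code, for 10689 entries. Total counts per library ran from 20556381 to 37685541.

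Genes with low counts were removed with filterByExpr, which kept 20995 genes and at least 99.98% of each library's counts, and scaled by TMM. Testing used quasi-likelihood in edgeR 4.0.16 (R 4.3.3, robust), with 1 mean for each of 24 groups over all 48 libraries, since 2 libraries a group leave little spread to estimate, and BH adjustment over all genes tested. The common dispersion was 0.0485. The threshold was an adjusted p of 0.05. Levels are TMM-scaled CPM, and changes are log2 with SE. The p-values rest on spread pooled over all groups. The test script was also tested on simulated data.

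The genes named were the 15 higher and 15 lower ones of largest log2 change past the threshold whose libraries did not overlap, provided they had a symbol and their higher line averaged 8 CPM or more, and any member of 38 gene lists. Genes without a symbol were named after their values were seen. The members and lists were chosen with earlier results of these data known. Promoters came from the TAIR10.1 genome. Of 20869 genes with positions in both the deposited table and RefSeq, 6 did not overlap. Floors, at 3 counts a library, cover counting error only, while the SE comes from the quasi-likelihood test and includes spread between libraries. Alternatives were RLE scaling, other filters, DESeq2 1.42.0, smaller sets of libraries, a replicate block, the trimming note as a term, organelle genes left out and each library left out.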

Additional observations from a re-analysis of the deposited data

Results flagged for a closer look

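The test of the difference between the endodermal and the epidermal line change at 0 h passed for 11 of the genes ranked for naming. These genes were ranked by their endodermal change, and the same endodermal libraries enter the difference, so its size is favoured by the choice. On the log2 scale, as the endodermal minus the epidermal change, the values were 4.49 for ATPMEPCRB, 4.02 for EXPA8, 4.10 for TCH3, 3.42 for ACO1 (AT2G19590), 3.51 for DREB26, 3.11 for SOT7, 2.43 for HB1 and 2.12 for XTH18 among the higher genes. Among the lower genes they were -4.22 for TPPI, -2.09 for CAM8 and -1.69 for PIN4. Without pGL2(pGL2BRI1) replicate 2, in which the Casparian strip genes summed to 2574 CPM against 180 CPM in replicate 1, 6 of the 11 passed. These were EXPA8 (3.68), ACO1 (3.42), DREB26 (3.21), SOT7 (4.01), CAM8 (-2.37) and PIN4 (-1.46). The 5 that did not pass were ATPMEPCRB (4.00), TCH3 (3.70), HB1 (2.05), XTH18 (1.803) and TPPI (-2.27). The value of TPPI moved most, and TPPI itself was higher in the epidermal line with all libraries (2.56) and not with that library left out (0.61).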

How the results depend on the processing

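Against 530 higher and 97 lower genes as reported, the compared libraries alone called 136 and 11, of which 133 and 8 were among the reported ones. The 12 libraries of the compared lines called 342 higher and 71 lower genes, with 292 and 33 among the reported ones, so most of the lower calls were lost there. Lower genes numbered 62 with no filter on low counts, 196 with DESeq2 and 167 with the trimming note as a term. Leaving out each library of the comparison gave 196 to 456 higher and 14 to 123 lower genes, where the lone library of a line is assumed to vary like the other groups. The genes whose endodermal change exceeded the epidermal fell in number from 74 to 29 among the higher and from 14 to 7 among the lower without pGL2(pGL2BRI1) replicate 2, an alternative chosen after seeing the data. RLE scaling, the filter at a mean of 5 CPM and leaving out organelle genes kept the counts within 1.5 times. The 5 CPM filter, which also removes genes from the test, called 406 higher and 83 lower genes. Of these, 322 and 67 were among the reported ones.

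The labels give the replicates numbers but no pairing. With the replicate number as a block, 529 genes were higher and 93 lower, and none of the 50 named genes lost its call. The deviations of same-numbered replicates had a correlation of -0.48 across 20995 genes, and the crossed pairing in the compared libraries alone, chosen after seeing the data, called 1320 higher and 587 lower genes.

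Of the 50 named genes that passed, 20 did so whichever library was left out. The compared libraries alone lost 28 of 49 named calls, among them PLT2, ACT11, FLR1, ALF5, AKR4C8, AXR3, EXPA9 and EXPA11, and the 12 libraries lost 12 of 50, among them EXPA9, EXPA10 and XTH4. BR6OX2 passed in both of these fits and in the crossed pairing. Genes that had not passed and lay near 0 changed sign. CASP1 was at -0.095 with the trimming note as a term. When each library was left out in turn, BRI1 ran from -0.39 to 1.17, BES1 from -0.073 to 0.43, BZR1 from -0.14 to 0.10, MYB36 from -0.14 to 0.055, DWF4 from -0.68 to 1.097 and SCR from -0.40 to 0.015. The cause of these shifts was not tested. Genes without a symbol that were named after their values were seen were not followed in the fits that leave out a library of the comparison. At these depths genes under about 1 CPM rest on few reads.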

Other observations

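Other genes without a symbol that had large changes, named after their values were seen, were AT1G73780, a lipid-transfer-type protein (0.420 and 0.234 CPM against 22.2 and 16.2 CPM), AT1G09932, a phosphoglycerate mutase family gene (0.252 and 0.0467 CPM against 6.51 and 15.4 CPM), and AT1G76210 (0.420 and 0.420 CPM against 14.8 and 17.7 CPM). The uncharacterized AT5G24570 and AT3G05936 had 0.798 and 1.17 CPM against 24.7 and 22.2 CPM, and 0.588 and 0.887 CPM against 18.3 and 13.9 CPM. Among the lower genes, AT2G45180, another lipid-transfer-type protein, had 154 and 236 CPM in pSCR and 42.5 and 30.6 CPM in pSCR(pSCRBRI1), a log2 change of -2.42 ± 0.39 (adjusted p = 2.67e-04 in edgeR). AT3G23570, an alpha/beta-hydrolase gene, was lower next to its neighbour ALF5, with 79.8 and 48.7 CPM against 9.36 and 16.0 CPM (-2.34 ± 0.61, adjusted p = 0.0294). Of 11 genes of indole glucosinolate synthesis 9 had a negative log2 change, with a median of -0.63, and none passed.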
